A study of Schizosaccharomyces pombe with 6 samples.

Results

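The splicing factor genes of *S. pombe* were examined in RNA-seq of *htb1-K119R* and WT cells. They were taken by name as the genes whose symbols begin with prp, cwf, lsm, or smd and a number, or with sap and a number of at least 2 digits, leaving out genes annotated to DNA duplex unwinding. The names matched 59 of the 5184 genes listed, and the annotation to DNA duplex unwinding removed 0 of them. The names carry no measured value, but the members were chosen with earlier results of these data known. In *htb1-K119R* cells, histone H2B carries arginine in place of the lysine that receives monoubiquitin, and the question of the comparison is which transcripts differ when H2B cannot be ubiquitinated. The data are 3 *htb1-K119R* and 3 WT libraries of poly(A)-enriched RNA from whole cells. The study's strain list gives the *htb1-K119R* strain as h-, *ura4-D18*, *htb1-K119R*::*kanMX6*, and the WT strain TK8 as h+, *ade6-M216*, *leu1-32*, *ura4-D18*. The strains therefore share the *ura4* deletion and differ also in mating type, *ade6*, *leu1*, and the *kanMX6* cassette, and the effects of these cannot be told apart from that of the H2B mutation.

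Pre-mRNA splicing is carried out by the spliceosome, which assembles anew on each intron from small nuclear ribonucleoproteins (snRNPs) and non-snRNP proteins. Sm proteins form the ring around the U1, U2, U4, and U5 snRNAs, and Lsm proteins form the ring on U6 snRNA. U2AF and the SF3a and SF3b proteins of U2 snRNP define the 3′ splice site and the branch point, the U4/U6.U5 tri-snRNP brings in the catalytic RNAs, the Prp19 complex stabilizes the active site, and DExD/H-box RNA helicases drive the rearrangements between the steps. In *S. pombe* many of the proteins were found by their association with Cdc5, from which the cwf genes take their names, and most prp genes were found as mutants in pre-mRNA processing.

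Library totals lay between 18068808 and 18853455 counts in *htb1-K119R* and between 15987167 and 20701391 in WT. The members had between 0 and 2140 counts in a library. The *ura4* gene had 0 counts in each library in strains that both lack it, which allows a level of up to 0.124 to 0.228 CPM (counts per 1000000 with TMM scaling, from 3 counts per library, counting error only). A count cannot show a point mutation, and *htb1* itself had 25253 to 28635 counts in *htb1-K119R* and 24421 to 32936 in WT. The h- gene *mat1-Mc*, which has a silent copy elsewhere in the genome, had 252 to 301 counts in *htb1-K119R* and 183 to 354 in WT, so its counts did not separate the strains by their listed mating types. The P-factor gene *map2* of h+ cells ran against the list, with 109 to 167 counts in *htb1-K119R* and 38 to 91 in WT (log2 fold change 1.13, FDR = 0.00241, edgeR). For the M-factor gene *mfm2* of h- cells the counts were 597 to 818 in *htb1-K119R* and 365 to 525 in WT. It did not pass the test (log2 fold change 0.36, FDR = 0.34, edgeR). The receptor genes *map3* and *mam2* did not pass either (−0.23 and 0.03, FDR = 0.329 and 0.954, edgeR), and *mfm1* and *mfm3* had too few counts to be tested. WT replicate 3 stood apart from the other WT libraries. Over the members, its mean absolute log2 difference was 0.314 from WT replicate 1 and 0.292 from WT replicate 2. It was 0.159 between WT replicates 1 and 2 and 0.14 to 0.219 between *htb1-K119R* libraries. From the *htb1-K119R* libraries, WT replicate 3 differed by 0.335 to 0.357, and WT replicates 1 and 2 by 0.373 to 0.477. The TMM factor was 1.17 in WT replicate 3, 0.824 and 0.863 in WT replicates 1 and 2, and 1.01 to 1.13 in *htb1-K119R*. The sources call the repeats independent, and p-values measure the spread between these 3 libraries per strain.

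Most splicing factor genes, 42 of the 58 tested, did not pass the test for a difference between strains, and a small number changed strongly, in opposite directions. The largest rise was that of *cwf4*, a subunit of the Prp19 complex, at 5.23-fold, and the largest fall that of *cwf21*, at 3.59-fold. The members with an increase included the RNA helicase genes *prp11* and *prp22* and the SF3b gene *sap145*, whereas *lsm1*, *lsm5*, *smd1*, *sap14*, and *sap114* were lower. The calls of these lower genes were each lost in 5 to 12 of 17 alternative fits, whereas *prp11*, *prp22*, and *sap145* kept theirs in all 17. Of the members tested (*lsm8* had too few counts), 6 were higher and 10 were lower in *htb1-K119R* at an FDR below 0.05, the Benjamini-Hochberg adjusted p of edgeR's quasi-likelihood test. These were 10.3% and 17.2% of the members, against a background of 18.6% higher and 19.3% lower among the 4969 genes tested. With the study's thresholds for differentially expressed genes (DEGs), a change beyond 2-fold at an FDR below 0.05, *cwf4* and *prp11* were upregulated and *cwf21* was downregulated. This was 5.17% of the members, against 8.35% of all genes, 4.71% upregulated and 3.64% downregulated. The thresholds were applied to the edgeR fit, which gave 234 genes upregulated and 181 downregulated. From its own analysis the study reported more genes upregulated and fewer downregulated. The median log2 fold change over the members was 0.02, against −0.01 over all genes, and the median of its absolute value was 0.27 against 0.34. The libraries of the 2 strains did not overlap for 13 members higher and 11 lower, together 41.4%, against 48.8% of all genes (25.0% higher and 23.9% lower).

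The scaling and WT replicate 3 bear on these counts. When libraries were scaled by their totals without TMM, the median of all genes shifted to 0.15 and that of the members to 0.19, and 5 members were higher (*cwf4*, *prp11*, *prp22*, *sap145*, and *lsm4*) and 1 was lower (*cwf21*). Without WT replicate 3, 16 members were higher and 13 were lower. The lower members numbered 3 without *htb1-K119R* replicate 1, 2 without *htb1-K119R* replicate 3, and 4 without WT replicate 2, each with 5 higher. The shares of all genes called under these settings are not given, so the shifts cannot be read as particular to the members. The 5 genes *cwf4*, *prp11*, *prp22*, *sap145*, and *cwf21* passed the test under each of the 17 alternative settings, and *cwf28* under 16 of them, with library totals as the exception (FDR = 0.0506, edgeR). Each of the other 10 lost its call when at least 1 of the 6 libraries was left out. The plot of levels by library shows the 16 members.

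**Figure D1:**
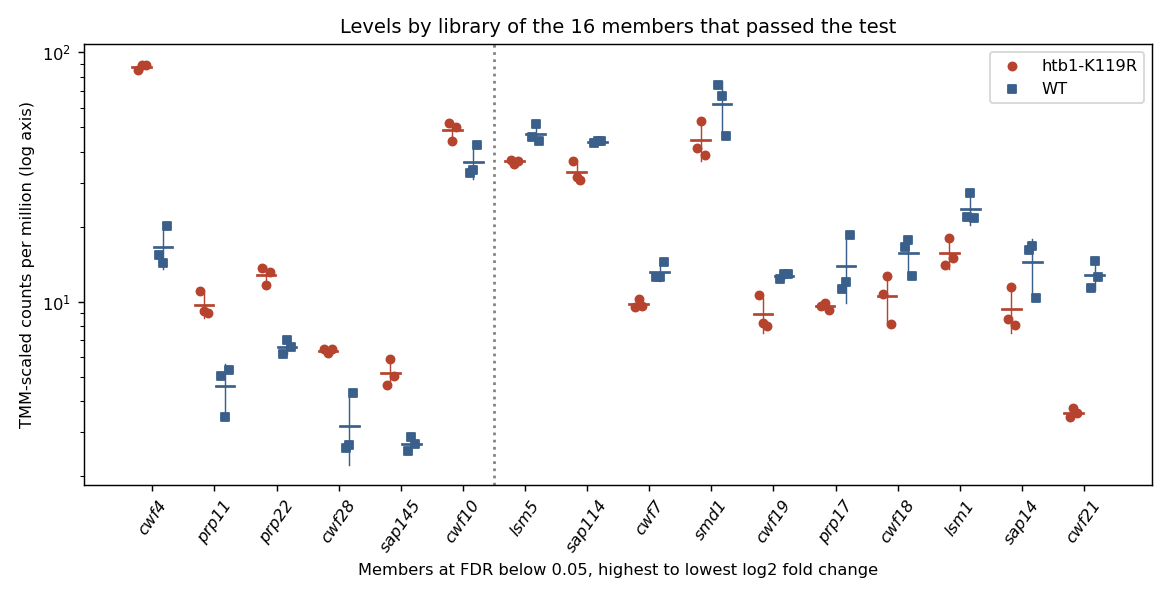
TMM-scaled CPM (log axis) of the 16 members at FDR below 0.05, ordered from the highest to the lowest log2 fold change, in 3 *htb1-K119R* libraries (circles, left) and 3 WT libraries (squares, right), with mean (horizontal line) and SD (vertical line). The 6 genes left of the dotted line were higher in *htb1-K119R*, and the largest gaps between strains are those of *cwf4* and *cwf21*.

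Per length, splicing factor transcripts were less abundant than the typical transcript. Their median was 7.54 FPKM (fragments per kilobase of transcript and 1000000 mapped fragments) in *htb1-K119R* against 12.9 FPKM over all tested genes, and 7.0 FPKM in WT against 11.8. The highest levels were those of genes for small ring proteins. Not every ring gene was high, with *lsm8* at 0.792 FPKM in *htb1-K119R* and 0.651 FPKM in WT. The most abundant member was *lsm7*, at 209 FPKM in *htb1-K119R* and 183 FPKM in WT, followed by *smd2* at 101 and 103 FPKM and *lsm6* at 89.6 and 87.8 FPKM. At the bottom were *prp24*, which anneals U4 and U6 snRNAs, at 0.33 FPKM in *htb1-K119R* and 0.202 FPKM in WT, and *cwf3*, at 0.329 and 0.538 FPKM.

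The Sm ring is represented by 3 members, because the other Sm genes carry other names. The gene *smd1* had 41.3, 52.9, and 38.8 CPM in *htb1-K119R* replicates 1, 2, and 3, and 73.9, 66.9, and 46.2 CPM in WT replicates 1, 2, and 3. The libraries overlapped, since WT replicate 3 lay below *htb1-K119R* replicate 2. Its log2 fold change of −0.49 (SE 0.177) was just past the threshold (FDR = 0.04997, edgeR), and lost its call with RLE size factors and with offsets for GC content and gene length (−0.33, FDR = 0.107, edgeR). For *smd2* the levels were 44.7, 55.3, and 40.6 CPM in *htb1-K119R* against 65.5, 58.3, and 40.3 CPM in WT, and for *smd3* they were 64.0, 75.8, and 60.2 CPM against 74.6, 75.1, and 49.1 CPM. Both overlapped between strains, and neither passed the test (log2 fold changes −0.22 and 0.01, FDR = 0.355 and 0.960, edgeR). In all 3 genes WT replicate 3 was the lowest WT library. Without it, the log2 fold changes were −0.67 for *smd1*, −0.40 for *smd2*, and −0.17 for *smd3*, and *smd2* then passed as well (FDR = 0.00625, edgeR).

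Among the other Sm genes, which the names did not take in, *smf1* was lower in *htb1-K119R*, at 31.1, 37.7, and 29.7 CPM against 52.8, 51.3, and 38.9 CPM in WT (log2 fold change −0.53, FDR = 0.0146, edgeR). It lost its call in 8 of the 17 alternative fits, library totals (−0.35, FDR = 0.110, edgeR) and offsets for GC content and length (−0.30, FDR = 0.0911, edgeR) among them. The genes *smb1*, *sme1*, and *smg1* had log2 fold changes of −0.18, 0.24, and 0.22 and did not pass.

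The Lsm genes encode 2 rings that have 6 subunits in common. Lsm1 completes the cytoplasmic ring, which acts with decapping factors in mRNA decay, and Lsm8 the nuclear ring on U6 snRNA. The ring-specific gene *lsm1* had 14.0, 18.0, and 14.9 CPM in *htb1-K119R* and 21.9, 27.4, and 21.6 CPM in WT, with no overlap between strains. It fell 1.51-fold (log2 fold change −0.60, SE 0.146, FDR = 0.00954, edgeR), and kept its call in 5 of the 6 fits that left out a library but not with library totals (FDR = 0.144, edgeR). The counterpart *lsm8* was near the detection limit, with 6, 7, and 0 counts in *htb1-K119R* and 3, 4, and 3 counts in WT, and was not tested. A difference in *lsm8* was not detectable at this depth.

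Of the shared subunits, *lsm5* was lower in *htb1-K119R*. It had 37.1, 35.6, and 36.8 CPM in *htb1-K119R* and 45.7, 51.8, and 44.2 CPM in WT, which did not overlap (log2 fold change −0.37, SE 0.104, FDR = 0.0180, edgeR). With offsets for GC content and gene length the difference was −0.04 (FDR = 0.838, edgeR). The others did not pass the test. The gene *lsm2* had 31.4, 36.3, and 30.1 CPM in *htb1-K119R* against 30.4, 29.3, and 28.0 CPM in WT, and *lsm4* had 96.1, 106, and 105 CPM against 95.3, 95.6, and 79.2 CPM. For *lsm2* the strains overlapped and for *lsm4* they did not, with log2 fold changes of 0.16 and 0.18. For *lsm3* the levels were 33.5, 37.4, and 33.8 CPM in *htb1-K119R* against 43.3, 48.5, and 32.8 CPM in WT, for *lsm6* 34.7, 45.3, and 29.5 CPM against 46.8, 43.8, and 32.0 CPM, and for *lsm7* 101, 113, and 99.5 CPM against 121, 115, and 78.2 CPM. These 3 overlapped between strains and had log2 fold changes of −0.25, −0.16, and −0.00. With library totals, *lsm6* and *lsm7* had positive values of 0.03 and 0.20. As in the Sm ring, WT replicate 3 was the lowest WT library in each of *lsm1* to *lsm7*. The strains can be followed gene by gene in the plot of ring genes.

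**Figure D2:**
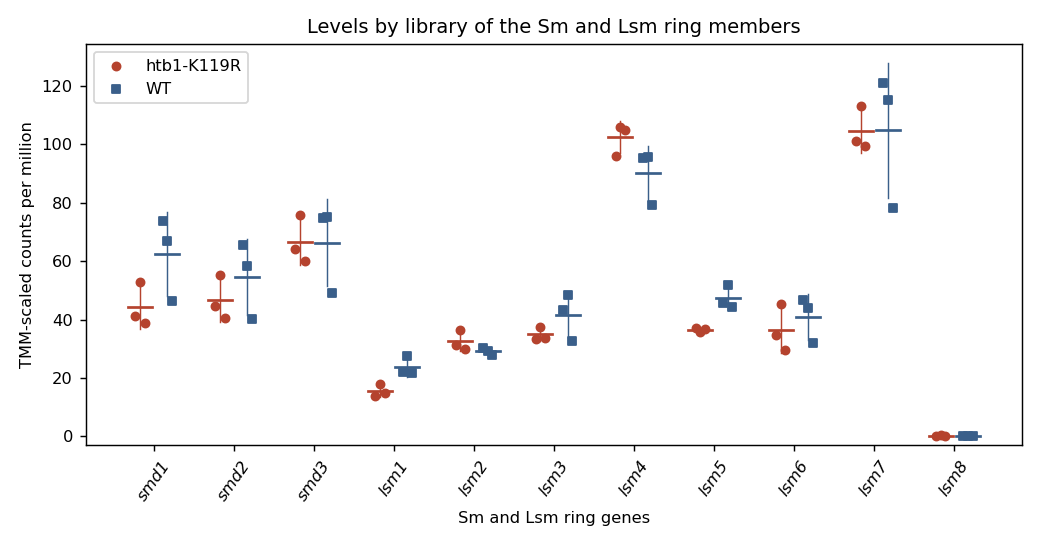
TMM-scaled CPM of the 3 Sm and 8 Lsm members in 3 *htb1-K119R* libraries (circles, left) and 3 WT libraries (squares, right), with mean (horizontal line) and SD (vertical line). The strains are apart for *lsm1*, *lsm4*, and *lsm5* and overlap for the others, and *lsm8* lies near 0.

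The decay factors that work with the Lsm1-7 ring were looked at beside *lsm1*. The decapping activator gene *dcp1* had 7.66, 10.2, and 5.94 CPM in *htb1-K119R* and 17.6, 13.6, and 10.3 CPM in WT, without overlap (log2 fold change −0.79, SE 0.236, FDR = 0.0235, edgeR). The decapping factor gene *pdc2* was higher, at 286, 264, and 281 CPM against 228, 218, and 227 CPM (log2 fold change 0.30, SE 0.102, FDR = 0.0379, edgeR). The offsets for GC content and length put *dcp1* at −0.37 and *pdc2* at 0.13, and neither passed (FDR = 0.0699 and 0.259, edgeR). In all, the call of *dcp1* was lost in 10 of the 17 alternative fits and that of *pdc2* in 8. The genes *edc3*, *exo2*, *pdc1*, and *ste13* had log2 fold changes of 0.24 to 0.49 and did not pass, and *dcp2* had too few counts to be tested.

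At the 3′ splice site and branch point, the U2AF large subunit gene *prp2* had 61.6, 61.3, and 61.5 CPM in *htb1-K119R* and 45.5, 47.6, and 58.7 CPM in WT. Although the strains did not overlap, the log2 fold change of 0.28 did not pass (SE 0.115, FDR = 0.0791, edgeR). Of the 9 SF3a and SF3b genes, 1 was higher, 2 were lower, and 6 did not pass, with a median log2 fold change of 0.23. The 33.3% called compare with 37.9% of all genes. The SF3b gene *sap145*, whose human homolog is SF3B2, had 4.65, 5.87, and 5.01 CPM in *htb1-K119R* and 2.51, 2.87, and 2.68 CPM in WT. Each *htb1-K119R* library lay above the WT libraries, and the rise was 1.92-fold (log2 fold change 0.94, SE 0.200, FDR = 0.00455, edgeR). The SF3b gene *sap14*, which encodes the small subunit next to the branch point adenosine, had 8.51, 11.4, and 8.06 CPM in *htb1-K119R* and 16.1, 16.7, and 10.3 CPM in WT. WT replicate 3 fell within the *htb1-K119R* range, and the log2 fold change was −0.61 (SE 0.210, FDR = 0.0411, edgeR). It was −0.24 with offsets for GC content and length and did not pass (FDR = 0.151, edgeR).

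The SF3a gene *sap114*, homologous to human SF3A1, had 36.5, 31.7, and 30.8 CPM in *htb1-K119R* and 43.3, 44.1, and 44.1 CPM in WT. The strains did not overlap, and the log2 fold change was −0.41 (SE 0.106, FDR = 0.0124, edgeR). The other SF3a genes, *sap61* and *sap62*, had log2 fold changes of 0.26 and 0.22 and did not pass. Among the other SF3b genes, *prp10*, the homolog of human SF3B1, had 22.0, 17.0, and 18.3 CPM in *htb1-K119R* and 10.3, 13.1, and 17.3 CPM in WT. WT replicate 3 again lay within the *htb1-K119R* range, and the log2 fold change of 0.48 did not pass (FDR = 0.0657, edgeR) but did without WT replicate 3 (0.70, FDR = 0.000619, edgeR). Within SF3b, *sap145* and *sap14* thus passed the test in opposite directions.

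Grouped with the tri-snRNP were 7 genes, the U4/U6 annealing factor gene *prp24* among them, which had only 6 to 24 counts in a library. Of the 7, 6 had positive log2 fold changes, against 2462 of 4969 genes. By the test, 1 was higher (14.3%, against 18.6% of all genes), and the median was 0.36. The U5 GTPase gene *cwf10*, homologous to *SNU114* of budding yeast, had 51.9, 44.0, and 50.4 CPM in *htb1-K119R* and 32.7, 33.8, and 42.5 CPM in WT. The strains did not overlap, and the log2 fold change was 0.42 (SE 0.127, FDR = 0.0251, edgeR). With offsets for GC content and length it was 0.14 and did not pass (FDR = 0.232, edgeR), and the median of the 7 genes was 0.12. The kinase gene *prp4*, with 4.94, 3.90, and 5.73 CPM in *htb1-K119R* against 3.19, 3.16, and 3.76 CPM in WT, and *prp24*, with 1.03, 1.04, and 1.24 CPM against 0.455, 1.01, and 0.785 CPM, did not overlap between strains. Their log2 fold changes of 0.52 and 0.54 did not pass (FDR = 0.0780 and 0.258, edgeR). The genes *prp1*, *prp3*, *prp31*, and *prp38* had log2 fold changes between −0.33 and 0.36 and did not pass.

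Some U5 partners of Cwf10 are not among the names. The gene *spp42*, which encodes the Prp8 homolog at the catalytic core, had 12.2, 9.44, and 11.3 CPM in *htb1-K119R* and 5.09, 3.80, and 4.95 CPM in WT (log2 fold change 1.24, FDR = 0.000467, edgeR). The helicase gene *brr2* had 18.2, 13.6, and 16.2 CPM against 7.06, 7.25, and 9.25 CPM (log2 fold change 1.01, FDR = 0.00105, edgeR). In both, the strains did not overlap. Both still passed with offsets for GC content and length but fell short of 2-fold, at 0.60 for *spp42* and 0.40 for *brr2* (FDR = 0.0113 and 0.0265, edgeR). The U5 genes *dim1* and *spf38*, also outside the names, had log2 fold changes of −0.09 and −0.08. Neither passed the test (FDR = 0.577 and 0.699, edgeR).

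In the Prp19 complex, *cwf4* stood apart from its partners. The gene encodes a protein of repeated helical motifs that is homologous to Clf1 of budding yeast and acts as a scaffold. It had 1802, 1618, and 1719 counts in *htb1-K119R* and 203, 199, and 486 counts in WT. These correspond to 84.7, 88.8, and 88.8 CPM in *htb1-K119R* and 15.4, 14.3, and 20.1 CPM in WT, or to 87.4 ± 2.37 and 16.6 ± 3.07 CPM (SD, n = 3 each). The lowest *htb1-K119R* library lay far above the highest WT library, and the log2 fold change was 2.39 (SE 0.135, FDR = 1.217e-06, edgeR). Leaving out single libraries gave values of 2.29 to 2.56, and it was 2.27 with offsets for GC content and length. The genes on either side of it did not pass the test, with log2 fold changes of 0.19 for *mub1* and −0.15 for *tma20*. In the RefSeq annotation no coding gene, but 2 noncoding genes, overlap *cwf4* on the other strand.

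The other 10 genes of the Prp19 complex and its partners had log2 fold changes from −0.88 to 0.07. The ubiquitin ligase gene *prp19* itself had 73.6, 57.8, and 73.1 CPM in *htb1-K119R* and 70.5, 60.0, and 64.2 CPM in WT (log2 fold change 0.07, FDR = 0.675, edgeR). The gene *prp5*, which encodes a WD repeat protein of the complex, differed by 0.01, and *cdc5*, after which the cwf genes are named, by −0.24, and neither passed. Lower in *htb1-K119R* were *cwf7*, homologous to human SPF27, and *cwf18*. The levels of *cwf7* were 9.54, 10.2, and 9.61 CPM in *htb1-K119R* and 12.5, 12.6, and 14.4 CPM in WT, which did not overlap (log2 fold change −0.44, SE 0.135, FDR = 0.0271, edgeR). Those of *cwf18* were 10.7, 12.7, and 8.11 CPM against 16.5, 17.7, and 12.7 CPM. The highest *htb1-K119R* and the lowest WT library were level (log2 fold change −0.56, SE 0.190, FDR = 0.0383, edgeR). With offsets for GC content and length, *cwf18* was at −0.18 and *cwf7* at −0.36, and neither passed (FDR = 0.272 and 0.0939, edgeR). The gene *cwf3* had 0.94, 0.714, and 1.08 CPM in *htb1-K119R* and 1.14, 2.23, and 1.69 CPM in WT, and its log2 fold change of −0.88 did not pass (SE 0.341, FDR = 0.0635, edgeR).

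The 5 members described as ATP-dependent RNA helicases each had a positive log2 fold change with TMM scaling, with a median of 0.57, and 2 of them (40.0%) passed the test, against 37.9% of all genes. These 5 had a median of 0.39 with offsets for GC content and length, and *prp43* was then at −0.15. Prp11, the counterpart of Prp5 of budding yeast, acts when U2 snRNP joins the branch point. Its gene had 11.0, 9.17, and 8.99 CPM in *htb1-K119R* and 5.01, 3.45, and 5.33 CPM in WT. The strains did not overlap, and the rise was 2.10-fold (log2 fold change 1.07, SE 0.196, FDR = 0.00203, edgeR). When each library was left out it lay between 0.91 and 1.2, so that the 2-fold threshold was not always reached, and with offsets for GC content and length it was 0.81. The gene *rad16* beside it was also higher (log2 fold change 0.48, FDR = 0.0351, edgeR), and *cwf23* on its other side did not pass (−0.04). Prp22 releases the spliced mRNA, and *prp22* had 13.6, 11.7, and 13.2 CPM in *htb1-K119R* and 6.15, 7.04, and 6.57 CPM in WT. It rose 1.95-fold without overlap (log2 fold change 0.96, SE 0.146, FDR = 0.000615, edgeR), and with the same offsets it was at 0.63.

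Prp16, which acts between the catalytic steps, had a transcript at 13.6, 12.7, and 12.2 CPM in *htb1-K119R* and 6.45, 7.32, and 11.8 CPM in WT. All *htb1-K119R* libraries lay above the WT libraries, and the log2 fold change of 0.57 was just short of the threshold (SE 0.209, FDR = 0.0530, edgeR). The U5 helicase gene *prp28* had 15.9, 11.7, and 15.6 CPM against 7.97, 9.05, and 12.9 CPM (log2 fold change 0.51, FDR = 0.0638, edgeR), and *prp43*, whose product takes the spliceosome apart, had 17.5, 10.3, and 16.1 CPM against 12.4, 11.9, and 18.4 CPM (log2 fold change 0.03). In *prp16* and *prp28* WT replicate 3 was the WT library nearest to or within the *htb1-K119R* range. Without it *prp16* and *prp28* passed, at 0.90 and 0.76 (FDR = 8.65e-05 and 0.000679, edgeR).

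The largest fall among the members was that of *cwf21*, whose human homolog is SRRM2, a protein of the active spliceosome. It had 73, 68, and 69 counts in *htb1-K119R* and 149, 204, and 306 counts in WT, corresponding to 3.43, 3.73, and 3.56 CPM against 11.3, 14.6, and 12.6 CPM. The strains were clearly apart (log2 fold change −1.85, SE 0.167, FDR = 2.406e-05, edgeR), and the value lay between −1.93 and −1.75 when each library was left out. In the RefSeq annotation *cwf21* overlaps *rog1*, a lipase gene on the other strand, which was also lower (log2 fold change −0.50, FDR = 0.00457, edgeR). The sources do not state whether counting used the strand, so reads of the 2 genes cannot be told apart with certainty.

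Of the remaining factors, *cwf28* had 6.44, 6.20, and 6.46 CPM in *htb1-K119R* and 2.58, 2.66, and 4.29 CPM in WT. The strains were apart, and the rise was 1.95-fold (log2 fold change 0.96, SE 0.225, FDR = 0.00738, edgeR). The second-step factor gene *prp17* had 9.64, 9.88, and 9.24 CPM in *htb1-K119R* and 11.2, 12.0, and 18.5 CPM in WT. The difference rested in part on WT replicate 3, with a log2 fold change of −0.55 (SE 0.193, FDR = 0.0451, edgeR) and of −0.27 without that library (FDR = 0.134, edgeR). With offsets for GC content and length it was −1.19 (FDR = 0.000278, edgeR). That value rests on an annotated exon length of 7640 bases, the longest of the members. In the annotation *prp17* also overlaps *fab1* on the other strand, so its counts are uncertain. Cwf19 is related to the cofactor of the lariat debranching enzyme in budding yeast. Its transcript was at 10.6, 8.18, and 8.0 CPM in *htb1-K119R* and 12.3, 12.9, and 12.9 CPM in WT, without overlap (log2 fold change −0.50, SE 0.154, FDR = 0.0259, edgeR).

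Of the members of the RES complex (retention and splicing), *cwf26* had 3.81, 3.13, and 3.87 CPM in *htb1-K119R* against 1.21, 2.37, and 2.64 CPM in WT, and *cwf29* had 6.96, 6.59, and 6.97 CPM against 8.05, 8.40, and 9.99 CPM. Both were apart between strains, in opposite directions, but neither passed the test (log2 fold changes 0.76 and −0.37, FDR = 0.0552 and 0.0837, edgeR). The other 9 genes of this group, helicases aside, did not pass either, with log2 fold changes between −0.37 and 0.31.

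**Figure D3:**
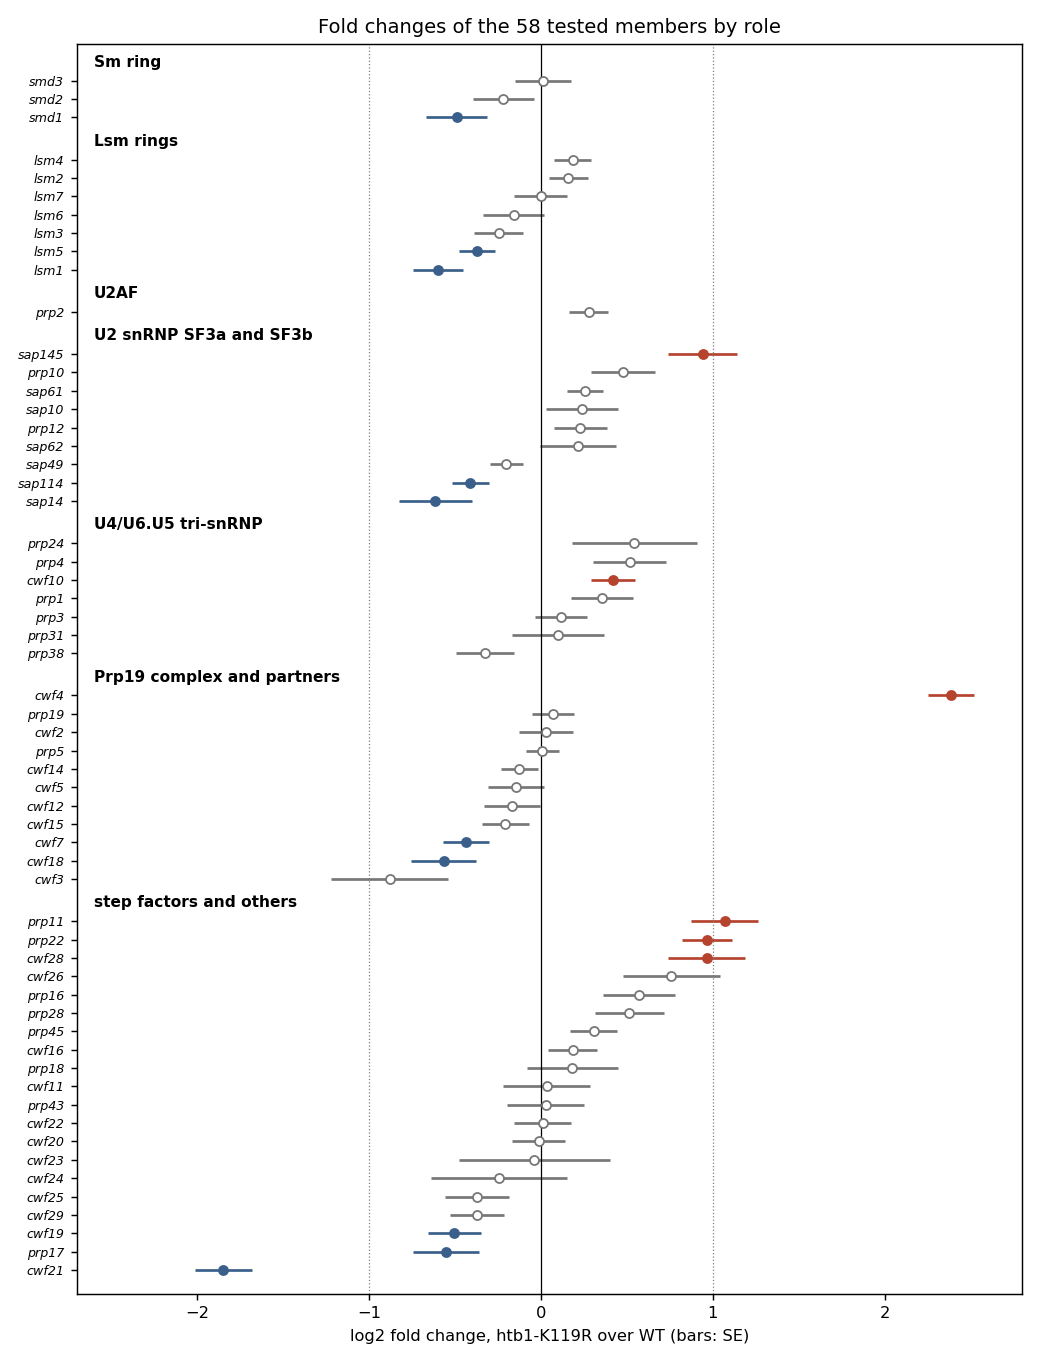
Log2 fold change of *htb1-K119R* over WT for the 58 tested members, grouped by role, with standard errors. Filled symbols passed an FDR of 0.05 (6 higher, 10 lower), open symbols did not, and dotted lines mark a 2-fold change, which *cwf4*, *prp11*, and *cwf21* exceeded.

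As transcripts that need splicing themselves, the members are richer in introns than the genome. By gene ID, all 59 could be matched to the RefSeq annotation of the ASM294v3 assembly, where 40 of them (67.8%) have introns, against 48.0% of the 5105 genes matched. Each of the 81 introns begins with GT and ends with AG. The starts GTAAGT and GTATGT were counted, and other starts were not. GTAAGT occurred in 32.1% of the members' introns against 27.6% of all introns, and GTATGT in 22.2% against 19.8%. The starts of the first introns are shown for the intron-containing members with the highest log2 fold changes (*prp22* and *cwf10*) and the lowest (*cwf21* and *sap14*) among those that passed the test, as 20 bases of RefSeq ASM294v3 sequence on the coding strand, with the first 6 bases of the intron, where U1 and then U6 snRNA pair, in capitals.
prp22, chrI:1210392-1210411, minus strand: GTAAGTagtaggctttaata
cwf10, chrII:4052627-4052646, plus strand: GTAAGTggtctaaaaacatt
cwf21, chrI:2563941-2563960, minus strand: GTAAGAgatgcataaaaagc
sap14, chrII:2050432-2050451, minus strand: GTACGTtatcttagggaatg
Both higher genes shown carry GTAAGT at their first intron, and the lower genes shown carry other starts. The genes were chosen by their fold changes, and they are not all of the 9 lower members with introns. With 4 genes this is a description of these introns.

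The median fold changes of members without and with introns differed in sign with TMM scaling. Of the 19 members without introns, 15 had a positive log2 fold change and the median was 0.18, with 4 higher and 1 lower at FDR below 0.05 (21.1% and 5.26%, against 19.2% and 19.8% of all genes without introns). Of the 39 tested members with introns, 17 had a positive value and the median was −0.14, with 2 higher and 9 lower (5.13% and 23.1%, against 17.7% and 18.7% of all genes with introns). Over all genes the medians were −0.02 without and 0.01 with introns. With library totals the members' medians were both positive, 0.33 without and 0.02 with introns. Members with introns are also shorter, 25 of 40 lying below the median length of 1716 bases against 6 of 19 without introns, and gene length moved with the fold change across the whole table. The Spearman correlation of log2 fold change with exon length was 0.40 over 58 members and 0.35 over 4910 genes, which share the same libraries. With GC content it was 0.43 over the members and 0.06 over all genes. After the offsets for GC content and length, the correlation with GC content was 0.25 over the members and −0.02 over all genes. Members shorter than the median gene had a median log2 fold change of −0.16, and the longer ones of 0.24, against −0.16 and 0.15 over all genes. Among the longer members the median was 0.28 without introns (n = 13) and 0.18 with introns (n = 15), and among the shorter ones −0.00 (n = 6) and −0.20 (n = 24). With offsets for GC content and length, the medians of members without and with introns were 0.12 and −0.03. These are descriptions without a test, and the parts of length and GC content in them were not separated further.

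**Figure D4:**
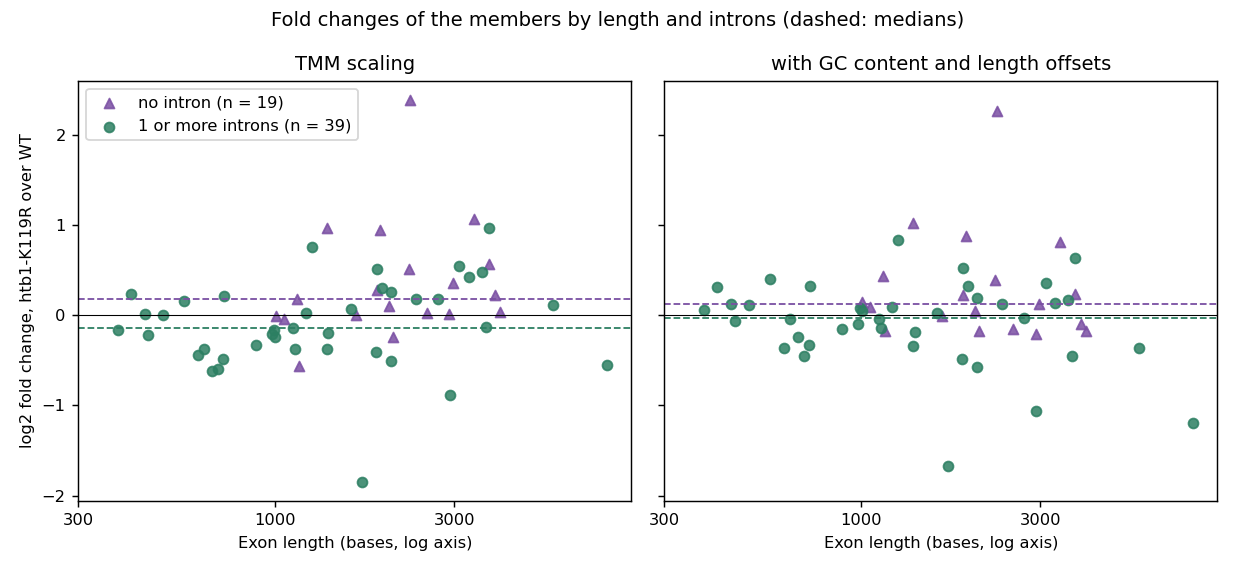
Log2 fold change of *htb1-K119R* over WT against exon length (bases, log axis) for 19 members without introns (triangles) and 39 with introns (circles), with TMM scaling (left) and with offsets for GC content and length (right). Dashed lines are the medians, which lie at 0.18 and −0.14 on the left and at 0.12 and −0.03 on the right.

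No promoter element of those searched was common to the members. The window ran from 250 bases before to 50 bases after the annotated gene start, and both strands were searched. The ribosomal protein gene elements HomolD (CAGTCACA) and HomolE occurred in 0 of 59 member windows, against 2.67% and 1.25% of 5123 windows. The MCB element ACGCGT of G1/S genes occurred in 2 members, *prp22* and *sap114* (3.39% against 3.24%), and the forkhead element GTAAACA in 4, *cwf16*, *lsm3*, *prp22*, and *sap114* (6.78% against 16.5%). Of the 59 members, 24 (40.7%) overlap a coding gene on the other strand, against 37.6% of all genes. These 24 had a median log2 fold change of 0.11, and the 34 tested members without such an overlap one of 0.01. Among the members that passed, *sap145*, *cwf28*, *cwf21*, *sap14*, *cwf18*, and *prp17* have such an overlap. Noncoding genes on the other strand overlap 42 members (71.2%, against 75.6% of all genes), *cwf4*, *prp11*, and *prp22* among them. Since the strand setting of the counting is not given, the counts of genes with either kind of overlap are uncertain.

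Beyond the names, 82 further genes of the table are annotated to mRNA splicing or snRNP assembly, and 81 were tested. Of these, 12 were higher and 10 were lower in *htb1-K119R* (27.2%, against 27.6% of the members and 37.9% of all genes). With the study's thresholds for DEGs, 7 exceeded 2-fold (8.64%, against 5.17% of the members and 8.35% of all genes). Over the 81 genes the median log2 fold change was −0.08, against 0.02 for the members. The 3 with the largest changes were *snu66*, *smn1*, and *spp42*, whose values stand with the tri-snRNP, followed by *syf2*. The tri-snRNP gene *snu66* had 6.11, 4.83, and 6.30 CPM in *htb1-K119R* and 0.531, 0.574, and 0.578 CPM in WT (log2 fold change 3.33, SE 0.259, FDR = 8.988e-06, edgeR). The gene *smn1*, whose product assembles Sm rings onto snRNAs, had 2.44, 2.42, and 2.07 CPM in *htb1-K119R* and 4.33, 5.67, and 6.48 CPM in WT (log2 fold change −1.26, SE 0.221, FDR = 0.00157, edgeR). Another fall was that of *syf2*, a further Prp19-associated factor, which had 12.2, 11.3, and 13.0 CPM against 29.5, 27.2, and 26.2 CPM (log2 fold change −1.18, SE 0.120, FDR = 5.149e-05, edgeR). In *snu66*, *smn1*, and *syf2* the libraries of the strains were apart.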

How the data were processed

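RNA-seq of 3 *htb1-K119R* and 3 WT cultures of *S. pombe* was analyzed, with groups and replicate numbers from the sample labels. The authors selected mRNA from Trizol-extracted RNA with oligo(dT), sequenced it by Illumina HiSeq, and, after rRNA reads were filtered out, mapped the reads (HISAT2, Ensembl release 45). Raw whole-number counts and StringTie FPKM values were deposited for each gene and library. The counting tool and strand setting are not given in the sources used here, although the submitters' processing notes also name fastp, Bowtie2, RSEM, and DESeq2. Columns of the authors' own fold changes and p-values, and 12 per-sample columns of a second table that repeat values of the first, were not used.

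Counts were fitted with edgeR 4.0.16 (R 4.3.3) with TMM scaling, filterByExpr, and the quasi-likelihood test, with genotype as the only factor, over all 5184 genes, of which 4969 passed the filter. Adjustment was by Benjamini-Hochberg over the tested genes, and standard errors follow from the F statistic. Between replicates the chi-square per gene (1 for counting error alone) was 8.6 to 83.2, so each pair of libraries differed by more than sampling noise. Exact permutation over 3 against 3 libraries cannot go below p = 0.1. Alternatives were RLE size factors, library totals, no filter, at least 10 counts in every library, DESeq2 1.42.0, limma 3.58.1 on log2(FPKM + 1) or log2(FPKM + 0.1) above a mean FPKM of 1, limma on log2(FPKM + 1) without that filter, a replicate block, lowess offsets (span 0.3) for GC content and length with or without the block, a stricter FDR of 0.01, and leaving out each library. The code was tested on simulated data. Introns, lengths, and overlaps come from RefSeq ASM294v3 by gene ID (5105 of 5184 matched, 98.5%), and whether Ensembl release 45 uses the same assembly was not checked. Named individually are members past the thresholds, the 10 highest and 10 lowest past the FDR, the Sm and Lsm genes, and the members of highest and lowest FPKM. Others were named by fold change or group range, and of further lists the 3 largest changes or every gene of a short list. The values per library of *prp2*, *prp10*, *prp4*, *prp24*, *cwf3*, *prp19*, *prp16*, *prp28*, *prp43*, *cwf26*, and *cwf29*, and of *brr2* and *syf2*, were added after they were seen. The members and lists were chosen with earlier results of these data known. Python 3.11.15 with pandas 2.3.3 and scipy 1.17.1 was used.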

Additional observations from a re-analysis of the deposited data

How the results depend on the processing

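Over all 17 alternative fits, *cwf4*, *prp11*, *prp22*, *sap145*, and *cwf21* kept their direction and their call, and no member that passed the test changed direction. With library totals, 5 members were higher and 1 lower at FDR below 0.05, 4 were upregulated beyond 2-fold, and the median was 0.189. The limma fits called 1 member lower in each case, with upregulated members numbering 1 on log2(FPKM + 1), 5 on log2(FPKM + 0.1), and 1 without the filter, and medians of 0.179, 0.205, and 0.172. Members downregulated beyond 2-fold numbered 3 with GC content and length offsets and 2 with these and the replicate block. At FDR below 0.01, 2 members were lower. Members lower without overlap numbered 4 with library totals and 4 in FPKM. When each library was left out, 5 to 16 members were higher, 2 to 13 lower, 2 to 3 upregulated, and 1 to 2 downregulated. Without overlap, 14 to 21 were higher and 11 to 19 lower. Fewer libraries leave less room for an overlap, so these last ranges do not measure stability. The highest counts of higher and lower calls came without WT replicate 3, and the lowest count of lower calls without *htb1-K119R* replicate 3 (2), followed by *htb1-K119R* replicate 1 (3) and WT replicate 2 (4). The cause was not tested. Shares of all genes called are given for the main fit only, so these shifts cannot be read as particular to the members.

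The deviations of same-numbered libraries correlated at −0.292, 0.461, and 0.291, and those of differently numbered ones at −0.561 to 0.411. With deviations taken from means of 3 libraries, this cannot decide whether the same numbers pair the libraries. With the replicate block, 10 members were higher and 10 lower. The further splicing genes numbered 3 lower with library totals, 3 lower in each limma fit, and 7 to 18 lower when each library was left out. Those upregulated beyond 2-fold were 3 with offsets, 3 with offsets and the replicate block, 2 in both log2(FPKM + 1) fits, and 3 to 5 when each library was left out. Those downregulated beyond 2-fold were 1 with offsets, 1 with offsets and the replicate block, 0 in both log2(FPKM + 1) fits, and 2 to 3 when each library was left out.

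Sign changes were confined to genes that did not pass the test, among the Sm, Lsm, decay, and other genes run. With GC content and length offsets, and with the replicate block added, *lsm3* was at 0.051 and 0.058, *lsm4* at −0.029 and −0.019, *lsm6* at 0.063 and 0.06, *lsm7* at 0.108 and 0.112, and *pdc1* at −0.057 and −0.049. With library totals, *lsm6* was at 0.029 and *lsm7* at 0.197. In the limma fits *lsm6* was at 0.011 in each, and *lsm7* at 0.196, 0.197, and 0.196. The value of *lsm7* was also positive with at least 10 counts in every library (0.002), the block (0.02), and without *htb1-K119R* replicates 1 (0.025) or 3 (0.033) or WT replicates 1 (0.115) or 2 (0.071). Leaving out each library gave −0.178 to 0.115 for *lsm7* and −0.169 to 0.111 for *smd3*, which was −0.108 without *htb1-K119R* replicate 2 and lowest without WT replicate 3. RLE and DESeq2 changed no direction. At the depth of these libraries, a change in *lsm8* or *dcp2* could not be detected.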
